A study of Arabidopsis thaliana with 8 samples.

Results

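Proline synthesis, breakdown and transport are represented by 10 genes of the 36799 in the count table, found there by their gene codes. They are P5CS1, P5CS2 and P5CR for synthesis from glutamate, OAT for the link with ornithine, ProDH1, ProDH2 and P5CDH for breakdown, and ProT1, ProT2 and ProT3 for transport. RNA was sequenced from whole 10-day-old Arabidopsis seedlings in 4 groups of 2 replicates each, 8 libraries in all. The groups were enap1-1enap2 Dehydration, enap1-1enap2 Mock, Col-0 Dehydration and Col-0 Mock. In enap1-1enap2, a line made by crossing, a CRISPR/Cas9 deletion in ENAP1 is combined with T-DNA insertions in the first exon of ENAP2. Col-0 is the wild type. Both genotypes stood for 4 h in the same medium, with 25% PEG8000 for dehydration or without it for mock. PEG8000 is a large polymer that lowers the water potential of the medium. The comparisons ask how water loss changes these genes and whether that change depends on ENAP1 and ENAP2, which bind histones.

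Proline is an amino acid that many plants build up when water is short, and it is removed again when water returns. In plastids and cytosol, P5CS turns glutamate into pyrroline-5-carboxylate, and P5CR turns this into proline. In mitochondria, ProDH and then P5CDH turn proline back into glutamate. P5CS is held to be the step that limits synthesis, and ProDH the step that limits breakdown, so that these genes are commonly used as markers of osmotic stress.

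The upstream sequences of 4 members are shown because their transcripts moved most or in opposite directions, as described further on. Each is the 250 bases before the annotated transcript start in the TAIR10 genome, written along the strand of the gene, and none overlaps another annotated gene. Capitals mark 3 sets of letters searched on both strands: ACGTG, the core of the ABA-responsive element, CCGAC, the core of the dehydration-responsive element, and ACTCAT, a short element first described in the ProDH1 promoter. P5CS1 lies at chr2:16603320-16603569, ProDH1 at chr3:12451557-12451806, P5CDH at chr5:25103313-25103562 and ProT3 at chr2:15345674-15345923, all on the minus strand.
P5CS1: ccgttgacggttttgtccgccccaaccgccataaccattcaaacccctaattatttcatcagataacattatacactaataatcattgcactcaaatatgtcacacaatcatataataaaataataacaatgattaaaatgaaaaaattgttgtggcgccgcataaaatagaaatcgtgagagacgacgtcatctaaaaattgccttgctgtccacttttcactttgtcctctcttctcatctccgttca
ProDH1: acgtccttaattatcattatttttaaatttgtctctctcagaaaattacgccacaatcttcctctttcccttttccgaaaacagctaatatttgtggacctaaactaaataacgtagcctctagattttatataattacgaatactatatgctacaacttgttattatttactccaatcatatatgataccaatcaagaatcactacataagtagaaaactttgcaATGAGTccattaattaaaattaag
P5CDH: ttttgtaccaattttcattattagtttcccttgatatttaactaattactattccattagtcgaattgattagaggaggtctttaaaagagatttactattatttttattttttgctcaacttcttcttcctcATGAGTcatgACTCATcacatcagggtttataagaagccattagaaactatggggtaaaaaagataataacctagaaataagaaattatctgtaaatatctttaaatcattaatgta
ProT3: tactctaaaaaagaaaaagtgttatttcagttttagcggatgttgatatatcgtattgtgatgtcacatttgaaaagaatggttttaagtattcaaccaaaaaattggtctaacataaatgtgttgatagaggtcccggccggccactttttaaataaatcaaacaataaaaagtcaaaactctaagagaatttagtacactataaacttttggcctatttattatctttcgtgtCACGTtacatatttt

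In a window of 250 bases before and 50 bases after the start, P5CS1 held none of the 3 sets of letters. ProDH1 held ACTCAT once, at position -24 on the strand opposite to the gene. P5CDH held it at positions -117 and -107, on opposite strands with 4 bases between them. ProT3 held ACGTG at position -15. Among the 27443 windows of protein-coding genes, 26.7% held ACGTG, 15% held CCGAC and 14.7% held ACTCAT. Of the 10 members, 3 held ACGTG (P5CR, ProT1 and ProT3), 2 held CCGAC (P5CS2 and P5CR) and 2 held ACTCAT. No match overlapped another. These matches describe letters in a window and were not tested for binding.

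Libraries held between 24007691 and 48279415 counts. A floor of 3 counts was worth between 0.0608 and 0.135 CPM (counts relative to library size, scaled with TMM). Replicates of each group differed beyond sampling noise. ENAP1 had 12.2 and 11.5 CPM in dehydrated enap1-1enap2, against 22.5 and 24.4 CPM in dehydrated Col-0. Under mock ENAP1 had 3.81 and 5.11 CPM in enap1-1enap2, against 13.9 and 17.3 CPM in Col-0. ENAP2, of whose exon bases 46.3% overlap another gene, had 4.06 and 4.92 CPM in dehydrated enap1-1enap2, against 8.70 and 7.22 CPM in dehydrated Col-0. Under mock ENAP2 had 3.10 and 3.51 CPM in enap1-1enap2, against 9.32 and 7.76 CPM in Col-0. Both were therefore lower in every library of the double mutant than in every Col-0 library of the same treatment. The stress genes RD29A, RD29B and RAB18 rose under dehydration in both genotypes. All 3 were lower in enap1-1enap2 than in Col-0 under mock, with log2 fold changes of -1.06, -3.50 and -1.31. Their log2 responses, enap1-1enap2 minus Col-0, differed by 4.45 for RD29B and 2.51 for RAB18. For RD29A the difference was 0.64 (adjusted p = 0.055 in edgeR's quasi-likelihood test). P5CS1, described below, was thus not alone in being lower under mock and more induced in the double mutant. Under mock, RD29B was at 43.2 and 4.82 CPM in the Col-0 libraries, and averaged 2.11 CPM in enap1-1enap2. This Col-0 pair thus stands apart in that gene. The size of the RD29B differences depends on the library at 43.2 CPM, and they are not given without it. For the members, values without each Col-0 Mock library are given where they matter.

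All 10 members passed the filter on low counts. In enap1-1enap2, dehydration raised 5 of them (P5CS1, P5CS2, ProT3, OAT and P5CDH) and lowered 2 (ProDH1 and ProT1), at an adjusted p under 0.05 in edgeR's quasi-likelihood test. Of all 21614 genes tested, 32.2% rose and 32.4% fell in this comparison. In Col-0, P5CR was added, so that 6 members rose and 2 fell, against 29.7% and 30.0% of all genes. With upper quartile scaling or library size alone, 3 members fell in each genotype, ProDH2 being added in enap1-1enap2 and ProT2 in Col-0. Calls over all genes moved down as well. With upper quartile scaling 39.8% of the 14083 genes called in enap1-1enap2 rose, and 36.3% of the 13358 called in Col-0. With library size alone these were 39.6% of 13857 and 36.5% of 13113, against 49.8% in each genotype with TMM. With the thresholds of the study (p under 0.01, an adjusted p under 0.05 and a log2 fold change beyond 1 in either direction), 4 members rose and 1 fell in enap1-1enap2, where 12.6% and 14.1% of all genes did. By the same rule 3 rose and 1 fell in Col-0, where 10.0% and 11.7% of all genes did. The median log2 fold change of the members was 0.31 in enap1-1enap2 and 0.47 in Col-0, beside -0.01 and -0.03 over all genes tested.

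**Figure D1:**
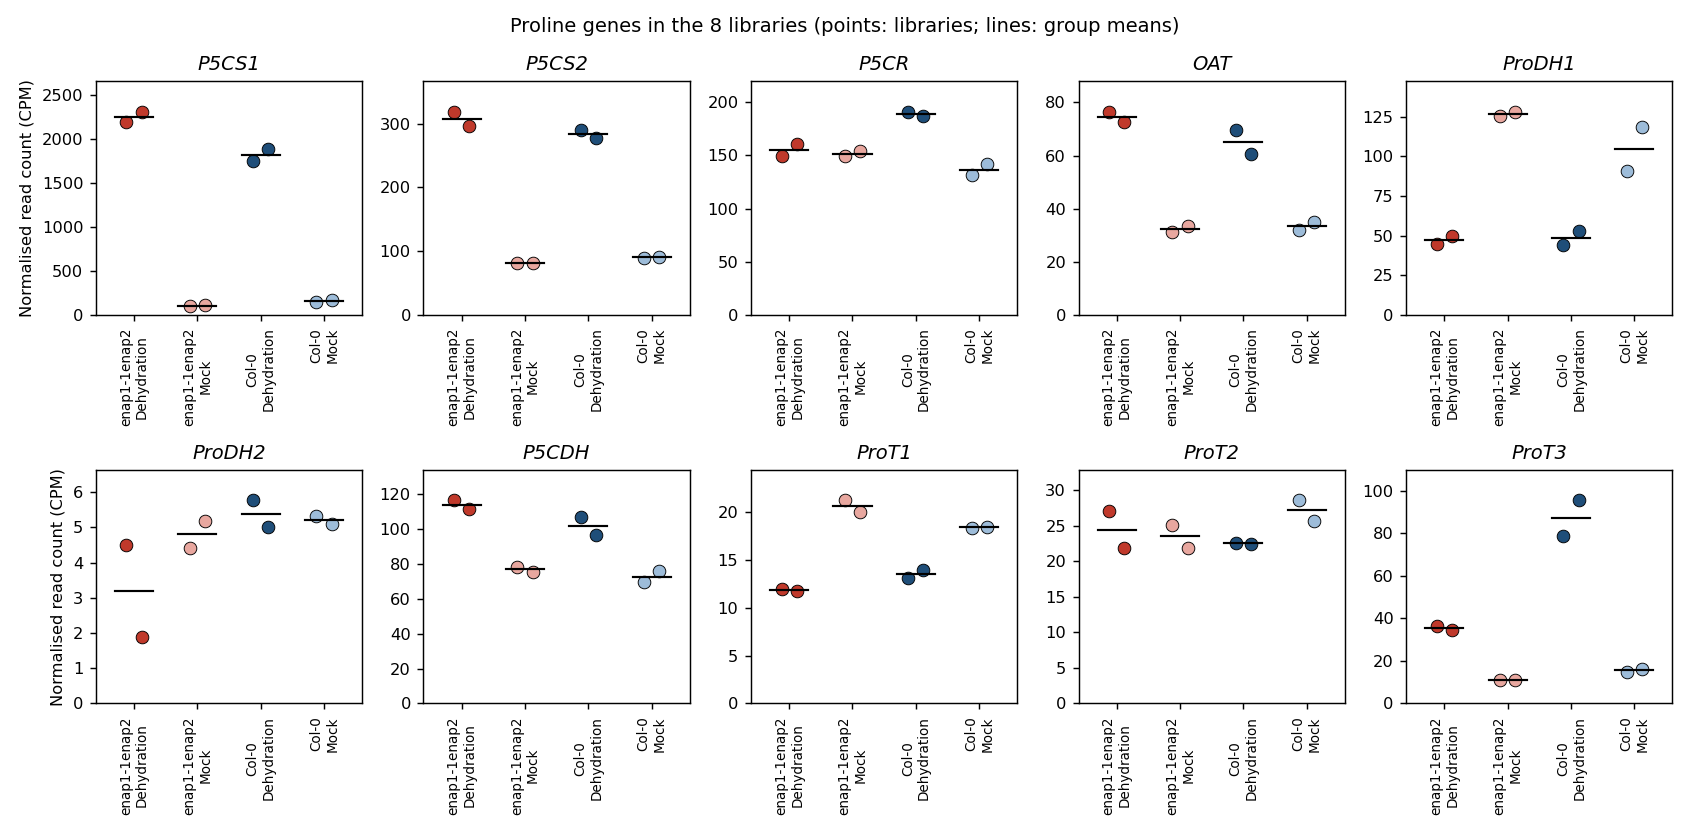
Normalised read counts (CPM, linear axes from 0) of the 10 genes in the 8 libraries, with points for libraries and lines for the mean of 2 replicates. P5CS1 reached 2198 and 2314 CPM in the dehydrated enap1-1enap2 libraries, and ProT3 was highest in the dehydrated Col-0 libraries, at 78.9 and 95.6 CPM.

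P5CS1 (AT2G39800), the stress-induced form of the first enzyme of proline synthesis, lies on the minus strand at chr2:16598072-16603319. Its transcripts were at 2198 and 2314 CPM under dehydration, against 103 and 108 CPM under mock, in enap1-1enap2. In Col-0 they were at 1751 and 1882 CPM under dehydration, against 144 and 168 CPM under mock. No library of one treatment came near those of the other, and P5CS1 was the member that moved most in both genotypes. Its log2 fold change was 4.42 (SE 0.12, a 21.4-fold rise, adjusted p = 7.6e-14) in enap1-1enap2. In Col-0 it was 3.54 (SE 0.11, a 11.6-fold rise, adjusted p = 7.0e-13). Ordered by fold change from the top, P5CS1 stood at place 219 in enap1-1enap2 and at place 244 in Col-0 among the 21614 genes tested.

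The rise of P5CS1 was larger in the double mutant than in the wild type. The log2 responses differed by 0.88 (SE 0.14, adjusted p = 7.2e-04 for the interaction in edgeR's quasi-likelihood test). Both ends contributed to this difference. Under mock, P5CS1 was lower in enap1-1enap2 than in Col-0, with a log2 fold change of -0.57 (SE 0.10, adjusted p = 0.0035). Under dehydration it was higher, by 0.31 (SE 0.10, adjusted p = 0.047). In each case the libraries of the 2 genotypes did not overlap. The interaction passed without each library in turn, from 0.76 without Col-0 Mock replicate 2 to 0.99 without Col-0 Mock replicate 1. The difference under mock was not called without enap1-1enap2 Mock replicate 1 (adjusted p = 0.1) or replicate 2 (adjusted p = 0.061). The difference under dehydration was not called without any one of the Dehydration libraries or of the enap1-1enap2 Mock libraries, with adjusted p from 0.095 without enap1-1enap2 Dehydration replicate 1 to 0.24 without Col-0 Dehydration replicate 1.

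P5CS2 (AT3G55610, chr3:20624020-20629295, minus strand), the form that serves growth and is needed in embryos, moved the same way and less far. It was at 319 and 297 CPM under dehydration, against 81.1 and 81.9 CPM under mock, in enap1-1enap2. Col-0 libraries had 290 and 278 CPM under dehydration, against 89.9 and 91.0 CPM under mock. The treatments did not overlap in either genotype. The log2 fold changes were 1.92 (SE 0.08, adjusted p = 1.5e-11) in enap1-1enap2 and 1.65 (SE 0.08, adjusted p = 1.0e-10) in Col-0, rises of 3.78-fold and 3.14-fold. These responses differed by 0.27 (SE 0.11), which did not pass (adjusted p = 0.12), and P5CS2 passed in neither comparison of the genotypes.

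With exon length taken into account (TPM, a level scaled by exon length and library), the shares of the P5CS genes in their sum changed. P5CS1 made up 86.6% and 87.9% of their summed TPM in enap1-1enap2 Dehydration, against 54.3% and 55.2% in enap1-1enap2 Mock. In Col-0 it made up 85.0% and 86.4% under dehydration, against 60.0% and 63.4% under mock. The share of P5CS1 was thus higher under dehydration in every library, and under mock it was lower in both enap1-1enap2 libraries than in both Col-0 libraries. Their exons share 19 stretches of 31 bases, 0.81% of those in P5CS1, so few reads could belong to either gene.

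P5CR (AT5G14800, chr5:4785960-4787996, minus strand) encodes the single enzyme of the last step of synthesis. It was at 149 and 160 CPM under dehydration, against 149 and 154 CPM under mock, in enap1-1enap2. Its values in Col-0 were 191 and 187 CPM under dehydration, against 131 and 142 CPM under mock. The treatments overlapped in enap1-1enap2 and did not in Col-0. P5CR rose in Col-0, with a log2 fold change of 0.47 (SE 0.08, adjusted p = 1.1e-04), while in enap1-1enap2 the value was 0.03 (SE 0.08, adjusted p = 0.75). The responses differed by -0.44 (SE 0.11, adjusted p = 0.015 for the interaction in edgeR's quasi-likelihood test).

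Under dehydration P5CR was lower in enap1-1enap2 than in Col-0, with a log2 fold change of -0.29 (SE 0.08, adjusted p = 0.023). These differences of P5CR are small, and they rest on few libraries. The interaction was not called without enap1-1enap2 Mock replicate 1 (adjusted p = 0.066), enap1-1enap2 Mock replicate 2 (0.091), Col-0 Dehydration replicate 1 (0.053) or enap1-1enap2 Dehydration replicate 1 (0.07). The difference under dehydration was not called without any one of the Dehydration libraries or of the enap1-1enap2 Mock libraries, with adjusted p between 0.058 and 0.18. Of the 1233 stretches of 31 bases in the P5CR exons, 294 (23.8%) occur again elsewhere in the genome, so its counts are less certain than those of the other members of synthesis.

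OAT (AT5G46180, chr5:18718417-18721744, minus strand) encodes ornithine aminotransferase, a mitochondrial enzyme that makes pyrroline-5-carboxylate from ornithine. It was at 76.6 and 72.6 CPM under dehydration, against 31.2 and 33.4 CPM under mock, in enap1-1enap2. The Col-0 level was 69.6 and 60.6 CPM under dehydration, against 32.0 and 35.0 CPM under mock. The treatments did not overlap. OAT rose 2.31-fold in enap1-1enap2 (log2 fold change 1.21, SE 0.09, adjusted p = 1.6e-08) and 1.94-fold in Col-0 (0.96, SE 0.09, adjusted p = 3.3e-07). The responses differed by 0.25 (SE 0.13), which did not pass (adjusted p = 0.21).

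ProDH1 (AT3G30775, chr3:12448636-12451556, minus strand), the main proline dehydrogenase, moved in the opposite direction to P5CS1 and P5CS2. It was at 44.5 and 49.96 CPM under dehydration, against 125 and 128 CPM under mock, in enap1-1enap2. In Col-0 it was at 44.3 and 52.9 CPM under dehydration, against 91.0 and 119 CPM under mock. The dehydrated libraries of both genotypes covered the same narrow range, and all mock libraries lay above it. ProDH1 fell by 1.43 on the log2 scale in enap1-1enap2 (SE 0.12, adjusted p = 3.8e-08) and by 1.11 in Col-0 (SE 0.12, adjusted p = 9.4e-07).

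The responses of ProDH1 differed by -0.31 (SE 0.17, adjusted p = 0.22), which did not pass. Here the Col-0 Mock libraries mattered, since they lay far apart in this gene. Without Col-0 Mock replicate 2, the higher of them, the interaction was -0.52 (adjusted p = 0.012) and ProDH1 was higher in enap1-1enap2 than in Col-0 under mock by 0.47 (adjusted p = 0.0088). Without Col-0 Mock replicate 1 the values were -0.14 (adjusted p = 0.55) and 0.09 (adjusted p = 0.66).

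ProDH2 (AT5G38710, chr5:15501126-15504269, plus strand), the second proline dehydrogenase, was rare. It was at 4.50 and 1.9 CPM under dehydration, against 4.42 and 5.19 CPM under mock, in enap1-1enap2. Col-0 libraries had 5.77 and 5.01 CPM under dehydration, against 5.33 and 5.11 CPM under mock. One library, enap1-1enap2 Dehydration replicate 2, lay below all others. ProDH2 passed in no comparison, with log2 fold changes of -0.55 (SE 0.30, adjusted p = 0.11) in enap1-1enap2 and 0.05 (SE 0.29, adjusted p = 0.9) in Col-0. Without enap1-1enap2 Dehydration replicate 1 the value in enap1-1enap2 was -1.33 (adjusted p = 0.001), which then rests on the low library alone. Between 87.9% and 96.4% of the summed TPM of the ProDH pair came from ProDH1 in the 8 libraries.

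P5CDH (AT5G62530, chr5:25099003-25103312, minus strand), the second enzyme of breakdown, did not follow ProDH1. It was at 117 and 111 CPM under dehydration, against 78.5 and 75.5 CPM under mock, in enap1-1enap2. Its values in Col-0 were 107 and 96.4 CPM under dehydration, against 69.6 and 76.0 CPM under mock. The treatments did not overlap, and P5CDH rose 1.48-fold in enap1-1enap2 (log2 fold change 0.56, SE 0.08, adjusted p = 2.5e-05) and 1.40-fold in Col-0 (0.48, SE 0.08, adjusted p = 1.5e-04). Its responses differed by 0.08 (SE 0.12, adjusted p = 0.68). Both ProDH1, which fell, and P5CDH, which rose, hold ACTCAT in the upstream sequences printed above, as do 14.7% of all windows, and its part was not tested.

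P5CDH overlaps SRO5 (AT5G62520), a gene on the other strand, over 811 of its 2589 exon bases (31.3%). In Arabidopsis this pair of convergent transcripts is known as a source of small RNAs that act on P5CDH under salt stress. Reads lying in both were not counted and strand was not used, so the counts of P5CDH come from the remaining part of its exons. SRO5, chosen after its values were seen, was at 25.6 and 24.7 CPM under dehydration, against 2.49 and 2.17 CPM under mock, in enap1-1enap2. In Col-0 SRO5 was at 33.0 and 37.0 CPM under dehydration, against 1.10 and 1.196 CPM under mock. It rose 10.7-fold in enap1-1enap2 (adjusted p = 8.4e-12) and 30.3-fold in Col-0 (adjusted p = 4.9e-13), and P5CDH rose in the same libraries.

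**Figure D2:**
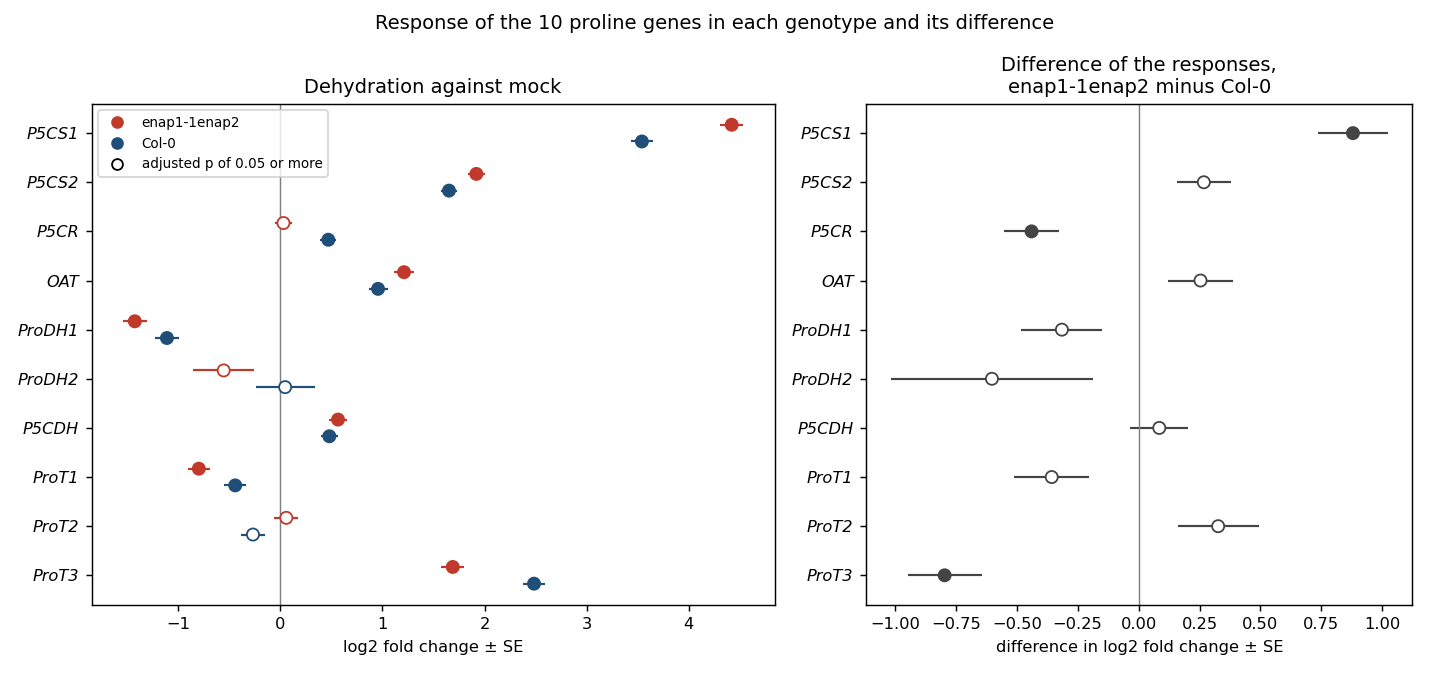
Left, log2 fold change of dehydration against mock for the 10 genes in enap1-1enap2 (red) and Col-0 (blue). Right, the difference between these responses, enap1-1enap2 minus Col-0. Bars are standard errors and open points did not pass an adjusted p of 0.05. The difference passed for P5CS1 (0.88), ProT3 (-0.80) and P5CR (-0.44).

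The ProT genes encode transporters of proline, glycine betaine and GABA in the plasma membrane. Of these 3, ProT3 rose, ProT1 fell and ProT2 did not pass. ProT3 (AT2G36590, chr2:15343006-15345673, minus strand) was at 36.7 and 34.5 CPM under dehydration, against 10.9 and 11.2 CPM under mock, in enap1-1enap2. The Col-0 level was 78.9 and 95.6 CPM under dehydration, against 14.7 and 16.4 CPM under mock. The 4 groups did not overlap, and the dehydrated enap1-1enap2 libraries lay between the mock libraries and the dehydrated Col-0 libraries. The rise was 3.22-fold in enap1-1enap2 (log2 fold change 1.69, SE 0.11, adjusted p = 2.4e-09) and 5.60-fold in Col-0 (2.48, SE 0.11, adjusted p = 2.7e-11).

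The response of ProT3 was smaller in the double mutant than in the wild type, the reverse of P5CS1. The difference was -0.80 (SE 0.15, adjusted p = 0.0024 for the interaction in edgeR's quasi-likelihood test), and it passed without each library in turn, at values from -0.93 to -0.65. Under dehydration ProT3 was lower in enap1-1enap2 than in Col-0, by a log2 fold change of -1.29 (SE 0.10, adjusted p = 2.3e-06), the largest difference between the genotypes among the members. It passed without each library in turn, from -1.43 to -1.15. Under mock it was also lower, by -0.50 (SE 0.11, adjusted p = 0.015), but not without Col-0 Mock replicate 2 (adjusted p = 0.053), enap1-1enap2 Mock replicate 1 (0.17) or enap1-1enap2 Mock replicate 2 (0.12). Other genes, among them AT2G36580, overlap 296 of its exon bases (14.8%).

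ProT1 (AT2G39890, chr2:16655577-16658412, plus strand) was at 11.99 and 11.75 CPM under dehydration, against 21.3 and 19.99 CPM under mock, in enap1-1enap2. In Col-0 it was at 13.1 and 14.01 CPM under dehydration, against 18.4 and 18.5 CPM under mock. All dehydrated libraries lay below all mock libraries. ProT1 fell by 0.80 on the log2 scale in enap1-1enap2 (SE 0.11, adjusted p = 9.0e-06) and by 0.44 in Col-0 (SE 0.11, adjusted p = 0.0025). The responses differed by -0.36 (SE 0.15), which did not pass (adjusted p = 0.13).

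ProT2 (AT3G55740, chr3:20695433-20698292, plus strand) was at 27.0 and 21.9 CPM under dehydration, against 25.1 and 21.8 CPM under mock, in enap1-1enap2. Col-0 libraries had 22.6 and 22.4 CPM under dehydration, against 28.6 and 25.7 CPM under mock. The treatments overlapped in enap1-1enap2 only. ProT2 passed in no comparison, with log2 fold changes of 0.06 (SE 0.12, adjusted p = 0.68) in enap1-1enap2 and -0.27 (SE 0.12, adjusted p = 0.062) in Col-0. The value in Col-0 was -0.45 and passed with upper quartile scaling (adjusted p = 0.0035) or with library size alone (adjusted p = 0.0059). Its counts are less certain, since 318 of the 2164 stretches of 31 bases in its exons (14.7%) occur again elsewhere in the genome.

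Some members differed between the genotypes, in counts too small to weigh against the shares of all genes. For the interaction, 1 member was more induced in enap1-1enap2 (P5CS1) and 2 were less so (ProT3 and P5CR), where 8.07% and 8.76% of all genes passed in these directions. Under mock, no member was higher and 2 were lower in enap1-1enap2 (P5CS1 and ProT3), against 3.47% and 3.70% of all genes. Under dehydration, 1 was higher (P5CS1) and 2 were lower (ProT3 and P5CR), against 6.56% and 8.14%. Without enap1-1enap2 Mock replicate 1, or without replicate 2, 0 members passed under mock. Under dehydration 1 member, ProT3, passed without any one of enap1-1enap2 Mock replicates 1 and 2, Col-0 Dehydration replicates 1 and 2 and enap1-1enap2 Dehydration replicate 2. The comparisons that use the same libraries are not independent of each other.

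The members also changed place among themselves. In TPM, P5CR was the most abundant member under mock, at 182 ± 3.85 in enap1-1enap2 and 159 ± 1.32 in Col-0 (SD, n = 2 each). Under dehydration P5CS1 was the most abundant, at 1176 ± 56.1 TPM in enap1-1enap2 and 940 ± 60.3 TPM in Col-0. In Col-0 Mock the ranges of P5CS1 (85.2 and 91.2 TPM) and ProDH1 (73.8 and 87.9 TPM), the members next in order, overlapped. In enap1-1enap2 Mock they did not, and ProDH1, at 101 ± 1.67 TPM, lay above P5CS1, at 61.5 ± 2.02 TPM. Neighbours whose ranges overlapped were also P5CDH and P5CS2, and ProT2 and ProT1, in enap1-1enap2 Mock, P5CS2 and P5CR in enap1-1enap2 Dehydration, and ProT3 and P5CDH in Col-0 Dehydration. TPM used the full exon length, although reads shared with another gene were not counted. The TPM of P5CDH (31.3% of exon bases overlapped) and ProT3 (14.8%) may thus be too low, and their places are uncertain. Repeated stretches in P5CR and ProT2 can act the same way. ProDH2 was lowest in all 4 groups.

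The ratio of P5CS1 to ProDH1, the genes of the limiting steps of synthesis and breakdown, separated the groups. It was 36.1 and 33.9 in enap1-1enap2 Dehydration, against 0.601 and 0.615 in enap1-1enap2 Mock. In Col-0 it was 28.9 and 26.0 under dehydration, against 1.16 and 1.04 under mock. The 4 groups did not overlap. P5CS1 alone made up 67.6% and 69.0% of the summed TPM of the 10 members in enap1-1enap2 Dehydration, against 11.7% and 12.02% in enap1-1enap2 Mock. In Col-0 it made up 60.3% and 62.2% under dehydration, against 16.96% and 17.85% under mock. These ratios describe the levels given above and were not tested.

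**Figure D3:**
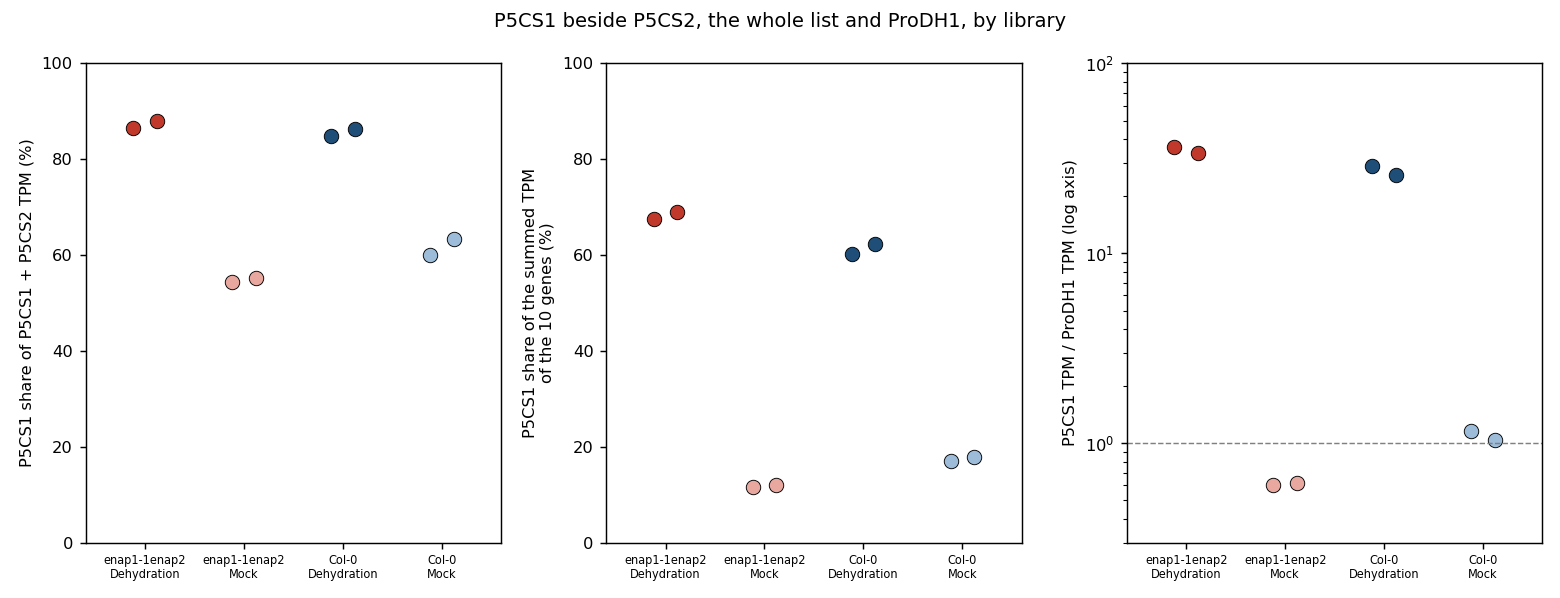
P5CS1 in relation to other members, by library, from TPM. Left, its percent of P5CS1 plus P5CS2. Centre, its percent of the summed TPM of the 10 genes. Right, its ratio to ProDH1 on a log axis, where the dashed line marks equal levels. The ratio was between 26.0 and 36.1 under dehydration, 0.601 and 0.615 in enap1-1enap2 Mock and 1.16 and 1.04 in Col-0 Mock.

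Seedlings hold leaf and root, and markers of both moved with the treatment. The summed CPM of 8 root markers was 61.9 and 58.3 in enap1-1enap2 Dehydration, against 213 and 202 in enap1-1enap2 Mock. In Col-0 it was 67.2 and 64.4 under dehydration, against 194 and 168 under mock. Of these markers 7 of 8 fell in enap1-1enap2 and 8 of 8 in Col-0, and none was at 0 in any library. Of 6 leaf markers, 5 fell and 1 rose in enap1-1enap2, and 4 fell and 1 rose in Col-0. Of all genes tested, 32.4% fell and 32.2% rose in enap1-1enap2, and 30.0% fell and 29.7% rose in Col-0. Their summed CPM was 14480 and 15740 in enap1-1enap2 Dehydration, against 24690 and 24380 in enap1-1enap2 Mock. In Col-0 it was 20240 and 19820 under dehydration, against 24960 and 29880 under mock. In bulk libraries, fewer cells of a type and less RNA per cell cannot be told apart, and the part of these shifts in the changes of the members was not tested.

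Around the pathway, 4 further lists of genes were counted, to be read against the 32.2% of all genes that rose and 32.4% that fell in enap1-1enap2, and the 29.7% and 30.0% in Col-0. Of 18 tested genes for enzymes of glutamate, glutamine and GABA, 4 rose and 7 fell in enap1-1enap2, and 5 rose and 5 fell in Col-0, shares of 22.2%, 38.9%, 27.8% and 27.8% that lie near those of all genes. With upper quartile scaling 3 rose and 11 fell in enap1-1enap2, and 4 rose and 7 fell in Col-0. Counts of the 4 lists under other scalings are to be read against the shift of all calls given with the members. Unlike those of the members, interactions named in the 4 lists are given for fits on all 8 libraries only. Their calls may depend on single libraries. GABA-T, which removes GABA, rose by 1.49 (SE 0.09, adjusted p = 1.2e-09) and by 1.42 (SE 0.09, adjusted p = 2.9e-09) on the log2 scale in enap1-1enap2 and Col-0. GLN1;2, a cytosolic glutamine synthetase, fell 4.28-fold in enap1-1enap2 (adjusted p = 7.7e-11) and 2.72-fold in Col-0 (adjusted p = 7.1e-09). GLN1;4, another one, fell 3.995-fold in Col-0 (adjusted p = 2.8e-05), while in enap1-1enap2 its log2 fold change was -0.54 (SE 0.26, adjusted p = 0.082), and the interaction was 1.45 (adjusted p = 0.021). GAD4, a glutamate decarboxylase, fell 2.38-fold in enap1-1enap2 (adjusted p = 3.2e-06) and 1.48-fold in Col-0 (adjusted p = 0.0047). GDH3, a rare glutamate dehydrogenase, fell to 14 and 4 counts in the dehydrated enap1-1enap2 libraries, against 52 and 28 under mock, and to 2 and 4 counts in the dehydrated Col-0 libraries, against 52 and 54 under mock.

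GLT1, the NADH-dependent glutamate synthase that makes glutamate, the substrate of P5CS, moved in opposite directions in the 2 genotypes. It was at 666 and 608 CPM under dehydration, against 1108 and 1091 CPM under mock, in enap1-1enap2. Its values in Col-0 were 1202 and 1029 CPM under dehydration, against 874 and 791 CPM under mock. The log2 fold changes of GLT1 were -0.79 (SE 0.10, adjusted p = 5.6e-06) in enap1-1enap2 and 0.42 (SE 0.10, adjusted p = 0.0021) in Col-0, with an interaction of -1.21 (SE 0.14, adjusted p = 7.2e-05). GLT1 kept these directions and calls under the other scalings, with values in Col-0 from 0.23 to 0.43.

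Of 16 genes for enzymes and carriers of ornithine and arginine, 4 rose and 10 fell in enap1-1enap2, and 4 rose and 6 fell in Col-0. These shares were 25.0% and 62.5% in enap1-1enap2 and 25.0% and 37.5% in Col-0, so that the share that rose and the share that fell in Col-0 lay near those of all genes. With upper quartile scaling or library size alone, 11 fell in each genotype. BAC2, a mitochondrial carrier of basic amino acids that shares exon bases with a neighbouring gene, rose by 4.55 in enap1-1enap2 (SE 0.23, adjusted p = 1.3e-10) and by 3.82 in Col-0 (SE 0.22, adjusted p = 9.0e-10). It was at 19.3 and 17.5 CPM in enap1-1enap2 Dehydration, against 0.964 and 0.534 CPM in enap1-1enap2 Mock, and at 13.4 and 10.9 CPM in Col-0 Dehydration, against 0.861 and 0.851 CPM in Col-0 Mock. ADC2, an arginine decarboxylase of polyamine synthesis, rose by 2.54 in enap1-1enap2 (adjusted p = 1.3e-11) and by 2.26 in Col-0 (adjusted p = 6.5e-11). ASS and ASL, the last enzymes of arginine synthesis, fell by 1.18 and 1.19 in enap1-1enap2 (adjusted p = 1.6e-08 and 1.1e-07). In Col-0 they fell by 0.84 and 0.65 (adjusted p = 1.1e-06 and 8.8e-05). The list did not move one way, since NAGS1 and NAOD, named here after their values were seen, rose in both genotypes. NAGS2, an N-acetylglutamate synthase at the start of ornithine synthesis like NAGS1, fell by 0.96 in enap1-1enap2 (adjusted p = 4.9e-05), while its value in Col-0 was 0.09 (adjusted p = 0.64) and the interaction was -1.05 (adjusted p = 0.0041).

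Of 7 tested amino acid permeases with a broad range of substrates, 2 rose and 5 fell in enap1-1enap2, and 3 rose and 4 fell in Col-0, or 2 rose and 4 fell there with upper quartile scaling or library size alone. The shares were 28.6% and 71.4% in enap1-1enap2 and 42.9% and 57.1% in Col-0, beside the shares of all genes given above, over few genes. AAP1 rose by 2.53 in enap1-1enap2 (SE 0.10, adjusted p = 6.2e-12) and by 2.14 in Col-0 (SE 0.10, adjusted p = 4.8e-11). AAP6 fell by 4.42 (SE 0.19, adjusted p = 1.9e-11) and by 3.88 (SE 0.20, adjusted p = 1.8e-10) in enap1-1enap2 and Col-0. AAP3, AAP5 and LHT1 fell in both genotypes, by 1.51, 1.32 and 1.08 in enap1-1enap2 and by 0.73, 0.61 and 0.73 in Col-0. AAP4 turned with the genotype, at -0.74 (SE 0.16, adjusted p = 8.9e-04) in enap1-1enap2 and 0.72 (SE 0.16, adjusted p = 0.0013) in Col-0, with an interaction of -1.46 (adjusted p = 5.7e-04), and kept these directions under the other scalings. AAP8 had no counts.

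The bZIP factors of groups S1 and C are known to bind ACTCAT in the ProDH1 promoter and to raise ProDH1 when sugars are scarce or osmotic strength drops. Of 9 of them, 6 rose and 2 fell in enap1-1enap2, and 5 rose and 2 fell in Col-0, shares of 66.7% and 22.2% in enap1-1enap2 and 55.6% and 22.2% in Col-0, beside 32.2% and 32.4%, and 29.7% and 30.0%, of all genes. With upper quartile scaling or library size alone, 4 rose and 2 fell in enap1-1enap2, and 4 rose and 3 fell in Col-0. bZIP9 rose by 2.48 in enap1-1enap2 (SE 0.10, adjusted p = 8.1e-12) and by 1.91 in Col-0 (SE 0.10, adjusted p = 1.5e-10), with an interaction of 0.57 (adjusted p = 0.0091). bZIP1 rose by 1.43 and 1.31 and bZIP25 by 1.08 and 1.14 in enap1-1enap2 and Col-0, with adjusted p between 1.3e-08 and 8.2e-07. The 2 that fell were bZIP63, by 1.42 in enap1-1enap2 (adjusted p = 4.0e-05) and by 0.78 in Col-0 (adjusted p = 0.0066), and bZIP2, by 0.65 in enap1-1enap2 (adjusted p = 4.6e-06) and by 1.31 in Col-0 (adjusted p = 3.1e-09). The fall of bZIP2 was the smaller in enap1-1enap2, with an interaction of 0.65 (adjusted p = 0.0016).

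**Figure D4:**
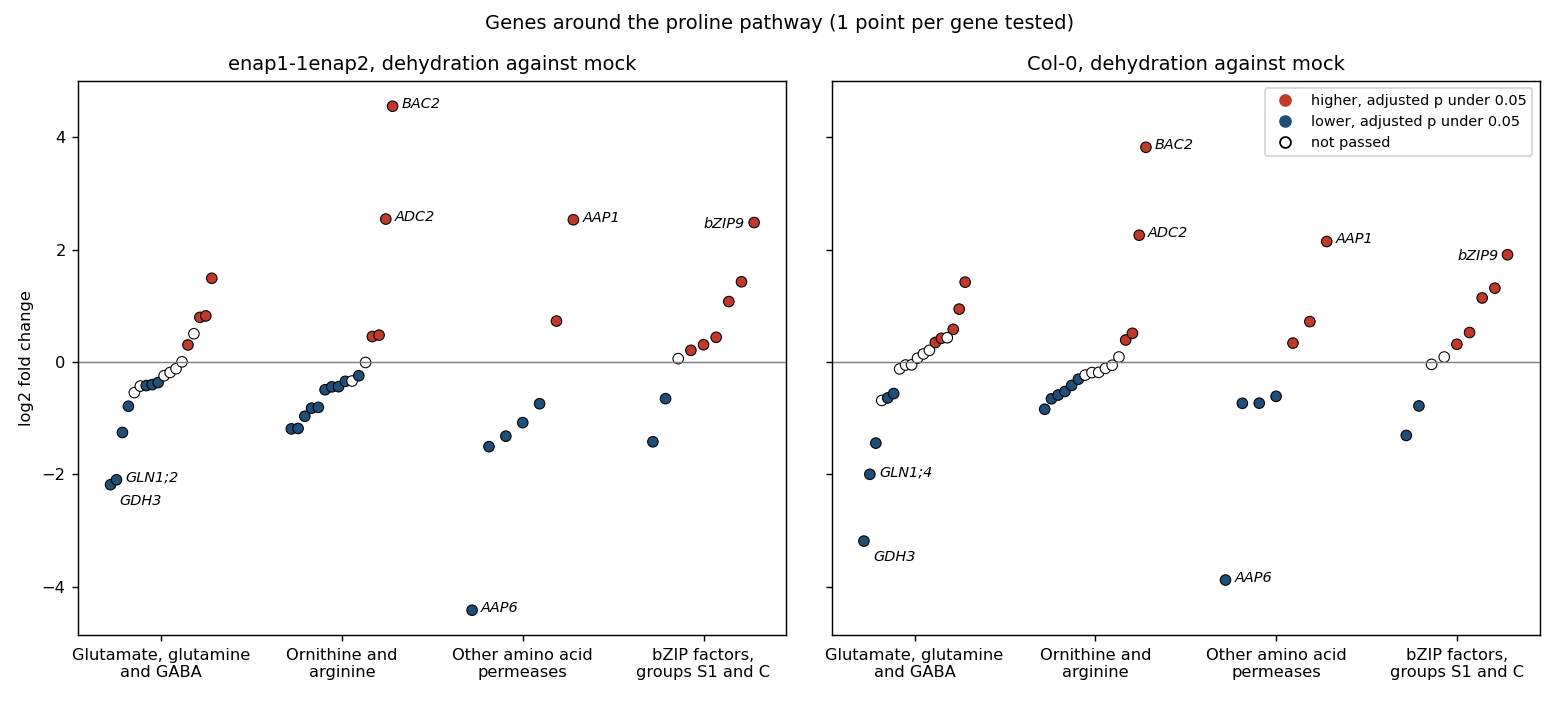
Log2 fold change of dehydration against mock for each tested gene of 4 lists around the proline pathway, in enap1-1enap2 (left) and Col-0 (right). Red points rose and blue points fell at an adjusted p under 0.05, and open points did not pass. BAC2 (4.55 in enap1-1enap2 and 3.82 in Col-0) and AAP6 (-4.42 and -3.88) lie farthest from 0.

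The genes with the pattern most like that of P5CS1 over the 8 libraries were ABI2, AT1G17940 and ERD10, among 15441 genes tested with a mean of at least 5 CPM. Likeness was the root mean square difference of log2(CPM + 1) after each gene was centred on its own mean, and it was 0.0937 for ABI2, 0.104 for AT1G17940 and 0.117 for ERD10. ABI2, a protein phosphatase of ABA signalling, averaged 310 CPM under dehydration and 13.9 CPM under mock in enap1-1enap2, and 266 CPM under dehydration and 20.4 CPM under mock in Col-0. ERD10, a dehydrin, averaged 3779 CPM under dehydration and 201 CPM under mock in enap1-1enap2, and 3677 CPM under dehydration and 309 CPM under mock in Col-0. In group means both were higher under dehydration and, under mock, lower in enap1-1enap2, as P5CS1 was. They were picked for likeness to P5CS1 in these libraries, so the shared pattern follows from the choice and was not tested. The genes most like ProDH1 were AT1G06790, AT5G53880 and AT2G37600, with differences of 0.0801, 0.0901 and 0.0926.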

How the data were processed

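The authors deposited raw read counts per gene, not normalized, for 8 libraries of whole Arabidopsis seedlings. Per the file headers, the methods and the submitters' processing notes, reads were trimmed with Trim Galore 0.6.7, mapped to TAIR10 and counted on Araport11 exons with featureCounts 2.0.1 without strand. The methods name bowtie2 while the names of the alignment files are those of STAR. Mates were counted singly and reads on several genes or places were left out by default, which lowers genes that overlap or have copies. Floors of 3 counts cover counting error only, and with mates counted singly, 3 counts can come from fewer than 3 read pairs.

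Genes were filtered with filterByExpr and scaled with TMM, and all 8 libraries entered 1 fit in edgeR 4.0.16 (R 4.3.3), by quasi-likelihood and with 4 group means. From it 5 contrasts were tested, with Benjamini-Hochberg adjustment over 21614 genes, and genes with an adjusted p under 0.05 were called changed. The SE was taken as log2 fold change over the root of F. The biological coefficient of variation was 0.0955. TPM used exon length. The steps were tested on simulated data. RefSeq TAIR10.1 supplied upstream sequences, after 99.5% of the 36632 genes found by locus tag had the same start and end as in the count table.

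The members and the gene lists were chosen with earlier results of these data known. Named were all members, ENAP1, ENAP2, 3 stress genes, and of each list up to 6 genes passing the study's thresholds in either genotype or the interaction, in order of the largest change. For P5CS1 and ProDH1 the 3 most similar genes were named. SRO5 was chosen after its values were seen. Alternatives were other scalings, DESeq2 1.42.0, other filters, a replicate block, 4-library fits and leaving out each library. The study describes the 2 replicates of each group as biological. Neither it nor the labels say here whether they came from separate cultures, so p-values measure the spread between these samples.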

Additional observations from a re-analysis of the deposited data

Results flagged for a closer look

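The response to dehydration differed between the genotypes, by a test of the interaction across all genes in edgeR's quasi-likelihood model, for 3 of the 10 proline genes. P5CS1 was more induced in the double mutant, by 0.88 on the log2 scale. ProT3 was less induced in enap1-1enap2, with a difference of -0.80. P5CR also had a smaller response, with a difference of -0.44, and this was the one of the 3 that did not pass without each library in turn.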

How the results depend on the processing

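Across the members and the alternatives, 738 values kept their direction and their side of the threshold, 17 gained a call, 21 lost one and 14 turned direction. No value that turned had passed in the reported fit or where it turned. With upper quartile scaling and library size alone, ProDH2 in Col-0 was at -0.14 and -0.14, P5CR in enap1-1enap2 at -0.13 and -0.13, and ProT2 in enap1-1enap2 at -0.10 and -0.11. Leaving out 1 library at a time, log2 fold changes covered -0.061 to 0.15 for ProDH2 in Col-0, -0.021 to 0.079 for P5CR in enap1-1enap2 and -0.11 to 0.20 for ProT2 in enap1-1enap2. Between the genotypes they covered -0.12 to 0.0002 for OAT under mock, -0.17 to 0.091 for ProDH1 under dehydration and -0.040 to 0.26 for ProT2 under dehydration.

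Leaving out 1 library at a time, between 0 and 2 members differed between the genotypes under mock, between 1 and 3 under dehydration, and between 2 and 4 in the interaction. Over all genes the interaction called 3639 genes, and 1801 without enap1-1enap2 Mock replicate 1. Under mock 1550 genes were called, 2389 without a count filter and 280 without enap1-1enap2 Mock replicate 1. Upper quartile scaling and library size alone moved the median of all genes to between -0.22 and -0.17 in the responses to dehydration, and the share of calls that were higher from 49.8% to between 36.3% and 39.8%. Under mock that share was 36.0% with upper quartile scaling, against 48.5%. The cause of these shifts was not tested.

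With a replicate block, 9 members passed in Col-0, since ProT2 (-0.27, adjusted p = 0.042 in edgeR's quasi-likelihood test) was added, 7 in enap1-1enap2, 3 in the interaction, 2 under mock and 3 under dehydration. Of all 21614 genes tested, 12720 passed in Col-0 in that fit and 13826 in enap1-1enap2. In the interaction 3379 passed, 1366 under mock and 2951 under dehydration. Differences between replicates gave correlations of -0.063 to 0.076 between groups, so no clear deviation was shared by replicate number. Whether samples of the same number were grown or handled together is not stated, and these values cannot decide it. A fit on 4 libraries cannot give the interaction and was not run for it. With 2 replicates a group, differences of the size seen for P5CR were called or not depending on single libraries.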
